A study of Homo sapiens with 6 samples.

Results

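The genes described here encode 39 proteins of the Fanconi anaemia pathway, homologous recombination, non-homologous end joining and the damage kinases that direct them. They were taken by name, and 35 of the 39 were measured among 19777 genes by a probe set that names a single gene. FANCA, FANCD2, BRCA2 and RBBP8 were not analysed here. The transcripts came from MDA-MB-231, an established human breast cancer line, on 6 one-colour arrays, 3 from cells transfected with a single siRNA against ING2 and 3 from cells transfected with a non-targeting siRNA. The labels give 1 line and 1 transfection reagent for all 6 samples, and RNA was collected at 4 days by one field of the labels and at 3 days by another. ING2 is a PHD finger subunit of a histone deacetylase complex built on SIN3. The comparison addresses how transcript levels differ on its depletion.

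Covalent links between the DNA strands are recognised by FANCM and by the Fanconi core complex, whose ligase subunit FANCL attaches ubiquitin to the FANCD2 and FANCI pair, and the break made while the link is cut out is then repaired by recombination. Recombination begins when the MRE11, RAD50 and NBN complex trims the broken end, after which BRCA2, PALB2 and proteins such as RAD51C and XRCC3 prepare the single strand for pairing with the sister copy. End joining instead seals the break through the Ku proteins XRCC5 and XRCC6, the kinase PRKDC and the ligase LIG4 with its partner XRCC4. Many of these genes are read most in dividing cells, when a sister copy of the DNA is present.

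ING2 itself read 163, 188 and 161 intensity units after ING2 siRNA, against 1400, 1349 and 1324 units in controls, so the target was at 12.5% of control (exact two-sided permutation p = 0.1, the smallest that 3 against 3 arrays allow). Median intensity was 78.4 to 81.5 units on ING2 siRNA arrays and 75.7 to 77.2 units on control arrays. Log2 intensity spanned an interquartile range of 3.12 to 3.27 on ING2 siRNA arrays and 3.33 to 3.38 on control arrays. RNA integrity can be read from GAPDH and ACTB control probe sets. The 3' minus 5' difference for GAPDH was 0.316 ± 0.043 log2 units after ING2 siRNA and 0.205 ± 0.015 in controls (SD, n = 3 each). The same difference for ACTB was 0.541 ± 0.096 after ING2 siRNA and 0.49 ± 0.11 in controls, with overlap. The median, the interquartile range and the GAPDH difference did not overlap between the groups, and their part in the changes below was not tested. Markers of the line were present: VIM, CD44, CAV1, KRT18 and AXL all lay above the median intensity of all genes, while ESR1, PGR, CDH1 and FOXA1 lay below it and GATA3 above it. Of 7 fibroblast markers 1 fell (LUM) and 1 rose (DCN), and their summed level was 985 to 993 units after ING2 siRNA and 953 to 1067 units in controls. Of 6 blood cell markers 1 fell (LYZ), and the summed level was 756 to 836 units after ING2 siRNA and 781 to 847 units in controls. No gene was listed at 0 on these arrays, so a value for a marker does not by itself show that it was expressed. The part of these markers in the results was not tested. Precision is limited by 3 arrays per group. Separate cultures are not stated for the replicates, and the p-values may then rest on technical spread.

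After ING2 siRNA the checkpoint kinase gene CHEK1, the end-joining gene XRCC4 and the recombination cofactor gene RAD51AP1 fell to between 66.9% and 68.5% of control. No member rose. Rose and fell are used here for a limma p under 0.05 once adjusted by Benjamini-Hochberg across the 19777 genes. The 3 called members are 8.57% of the 35, where 8.29% of all genes passed in either direction, 4.67% passed as lower and 3.62% as higher. Of the 35 members, 29 were at or above the median intensity of all genes, and among genes of that intensity 8.25% passed as lower and 1.96% as higher, compared with 10.3% of those 29 members as lower. The share of members called was thus near that of other genes of like intensity. The median log2 change was -0.15 over the 35 members, 0.06 over all genes and -0.04 over genes at or above the median intensity. A value below 0 was seen for 29 of the 35 members, and for 38.3% of all genes and 57.5% of genes at or above the median intensity. After quantile normalization 24 members were below 0, after cyclic loess 25 and after median centring of each array 33. The share of all genes below 0 was then 37.9%, 43.2% and 51.2%.

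**Figure D1:**
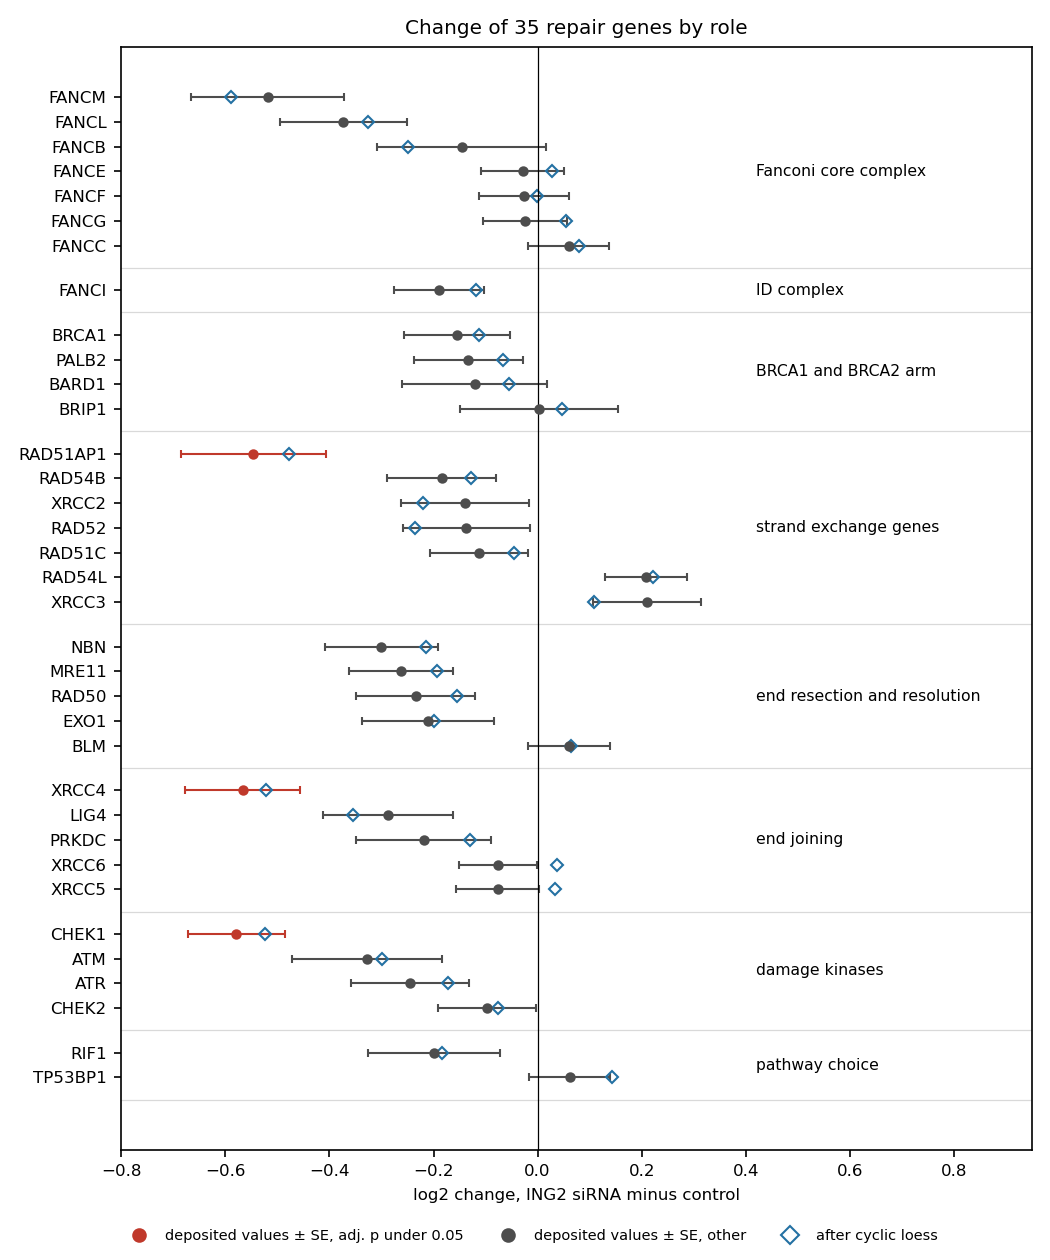
Log2 change (ING2 siRNA minus control) of the 35 measured members, grouped by role; filled points with bars are the deposited values ± SE of the limma fit over 3 arrays per group, and open diamonds the values after cyclic loess. CHEK1, XRCC4 and RAD51AP1, in red, lie near -0.6, most other members lie between -0.4 and 0, and RAD54L and XRCC3 lie at 0.21.

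The start regions of the 3 genes that fell are printed so that their sequences can be compared. Each is the RefSeq window (GRCh38.p14) from 250 bases before to 50 after the first listed start site, on the plus strand. Capitals mark the GC box GGGCGG and the word CCAAT, which appears as ATTGG because it lies on the other strand. CHEK1 is at chr11:125625979-125626278, XRCC4 at chr5:83077297-83077596 and RAD51AP1 at chr12:4538640-4538939.
CHEK1: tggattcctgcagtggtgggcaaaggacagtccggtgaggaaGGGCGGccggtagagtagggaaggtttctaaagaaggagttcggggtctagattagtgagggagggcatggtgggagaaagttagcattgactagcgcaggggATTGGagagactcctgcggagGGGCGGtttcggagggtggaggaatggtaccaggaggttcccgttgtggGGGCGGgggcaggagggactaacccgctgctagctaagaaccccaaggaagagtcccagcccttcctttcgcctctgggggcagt
XRCC4: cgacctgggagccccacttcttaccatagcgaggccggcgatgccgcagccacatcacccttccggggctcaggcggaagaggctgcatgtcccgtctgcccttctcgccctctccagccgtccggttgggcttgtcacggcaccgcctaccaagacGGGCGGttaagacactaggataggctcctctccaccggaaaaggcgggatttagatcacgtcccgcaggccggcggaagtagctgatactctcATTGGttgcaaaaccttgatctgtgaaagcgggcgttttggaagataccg
RAD51AP1: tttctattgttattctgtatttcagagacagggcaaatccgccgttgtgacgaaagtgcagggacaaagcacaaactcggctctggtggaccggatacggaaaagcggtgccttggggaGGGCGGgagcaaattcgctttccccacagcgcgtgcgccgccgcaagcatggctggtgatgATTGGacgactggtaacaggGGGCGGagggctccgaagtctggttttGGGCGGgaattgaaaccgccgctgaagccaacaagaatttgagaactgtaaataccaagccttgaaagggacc
All 3 windows hold CCAAT on the reverse strand and GGGCGG on the forward strand, with 3 GC boxes in CHEK1, 1 in XRCC4 and 3 in RAD51AP1, and no match overlaps another. The CCAAT match begins at base 146 of the window in CHEK1 and 181 in RAD51AP1. In XRCC4 it begins at base 251, past the 250 bases that precede the start site. In the 30 members that have a window in the table, CCAAT was found on either strand in 53.3%, compared with 36.1% of 15384 measured genes and 35.7% of 27305 genes in the table. GGGCGG was found in 76.7% of the members, 58.9% of measured genes and 44.6% of the table. An E2F-like word (any of TTTCCCGC, TTTGGCGC, TTTCGCGC or TTTGCCGC, on either strand) was found in 13.3% of the members (FANCC, XRCC2, EXO1 and XRCC6), 4.36% of measured genes and 3.33% of the table. The cell-cycle homology word TTTGAA was found in 13.3% of the members (FANCC, BRIP1, ATM and RIF1), 11.9% of measured genes and 15.4% of the table. None of the 3 printed windows holds an E2F-like word or TTTGAA. Median GC content was 63.7% in the members and 58.3% in the table, and its part in these shares was not tested. A match describes the letters only.

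Among the damage kinases, CHEK1 fell, with the lowest log2 value of all members though within an SE of XRCC4. CHEK1 halts the cycle and holds back late replication origins when ATR signals stalled forks. Its main probe set, 205394_at, read 374, 433 and 384 units after ING2 siRNA, against 548, 638 and 592 units in controls. All 3 ING2 siRNA arrays lay below all 3 controls. The log2 change was -0.58 (SE 0.09, n = 3 per group, limma adjusted p = 0.0193). ATR, the kinase that senses single-stranded DNA, read 559, 648 and 574 units after ING2 siRNA, against 597, 785 and 738 units in controls. Control replicate 1 lay among the ING2 siRNA arrays, and the log2 change of -0.24 (SE 0.11) did not pass (limma adjusted p = 0.161). ATM, which answers double-strand breaks, read 266, 334 and 311 units after ING2 siRNA, against 300, 414 and 440 units in controls. Here too only control replicate 1 overlapped, with a log2 change of -0.33 (SE 0.14, limma adjusted p = 0.144). With the mean of its 6 probe sets the value was -0.08 (adjusted p = 0.415). Such a mean weighs dim and bright probe sets alike, here including 1570352_at at means of 6.49 units after ING2 siRNA and 6.76 in controls. CHEK2, the kinase that ATM activates, had a log2 value of -0.10 (SE 0.09) that did not pass. Whether CHEK1 differed more than the other kinases was not tested.

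In end joining 1 of 5 measured genes fell, compared with 4.67% of all genes and 8.25% of genes at or above the median intensity. All 5 had a deposited value below 0, as did 38.3% and 57.5% of those genes. XRCC4, the scaffold that stabilises LIG4, read 378, 361 and 294 units after ING2 siRNA, against 481, 553 and 489 units in controls. The groups did not overlap and the log2 change was -0.57 (SE 0.11, limma adjusted p = 0.0260). LIG4, the ligase that seals the break, read 94.8, 108 and 119 units after ING2 siRNA, against 137, 148 and 110 units in controls. ING2 siRNA replicate 3 lay above control replicate 3, and the log2 change of -0.29 (SE 0.13) did not pass (limma adjusted p = 0.143). XRCC6, the smaller Ku protein, which rings the broken end, read 6885, 6809 and 6616 units after ING2 siRNA, against 7135, 7162 and 7123 units in controls. Its groups did not overlap, yet the log2 value was -0.08 (SE 0.07, limma adjusted p = 0.484) and turned to 0.04 after cyclic loess and 0.01 after quantile normalization. Its partner XRCC5 also had -0.08, with 0.03 after either normalization. PRKDC, the kinase that Ku recruits, had a log2 value of -0.22 (SE 0.13, limma adjusted p = 0.254).

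The strand exchange genes held 1 fall among 7 measured, where 4.67% of all genes passed as lower, and the 2 highest values of all members. RAD51AP1 binds DNA and stimulates strand pairing. It read 407, 577 and 508 units after ING2 siRNA, against 613, 750 and 806 units in controls, with no overlap. Its log2 change was -0.55 (SE 0.14, limma adjusted p = 0.0440), and it did not pass after cyclic loess (-0.48, adjusted p = 0.0543) or quantile normalization (-0.44, adjusted p = 0.0571). RAD54L, a motor protein that drives strand exchange, read 292, 300 and 311 units after ING2 siRNA, against 266, 267 and 249 units in controls. All 3 ING2 siRNA arrays lay above the controls, with a log2 value of 0.21 (SE 0.08, limma adjusted p = 0.103). XRCC3, which forms a pair with RAD51C, also had 0.21 (SE 0.10, adjusted p = 0.186) without overlap. Its ING2 siRNA values were 79.9, 80.0 and 101 units, against 74.4, 78.1 and 71.6 units in controls. RAD51C itself read 569, 633 and 539 units after ING2 siRNA, against 575, 661 and 646 units in controls, and the groups overlapped (-0.11, SE 0.09). The remaining values were -0.18 for RAD54B, a relative of RAD54L, -0.14 for XRCC2, a relative of XRCC3, and -0.14 for RAD52, which anneals single strands, and none passed.

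Among the Fanconi genes, FANCM and FANCL had log2 values well below 0 while the other core subunits were near it, and none of the 7 measured core genes passed. FANCM, the translocase that anchors the core complex to DNA, read 105, 105 and 83.8 units after ING2 siRNA, against 112, 166 and 148 units in controls. The groups did not overlap, with a log2 value of -0.52 (SE 0.15, limma adjusted p = 0.0538). Its adjusted p was 0.0431 after median centring, 0.0448 after quantile normalization and 0.0439 after cyclic loess. With the mean of its 4 probe sets the value was -0.17 (adjusted p = 0.122). That mean includes the dim 1554277_s_at, at means of 10.7 units after ING2 siRNA and 10.5 in controls. Of the 6 fits with an array left out, 4 gave adjusted p between 0.101 and 0.181. FANCL, the ubiquitin ligase of the complex, read 329, 432 and 379 units after ING2 siRNA, against 435, 558 and 481 units in controls. ING2 siRNA replicate 2 came just under control replicate 1, and the log2 value was -0.37 (SE 0.12, limma adjusted p = 0.0741). FANCG, a scaffold subunit, read 732, 763 and 729 units after ING2 siRNA, against 805, 719 and 739 units in controls, and the groups overlapped. Its log2 value was -0.02 in the deposited values and 0.05 after cyclic loess, and that of FANCE was -0.03 and 0.03. FANCF, the adaptor that ties FANCM to the core, had -0.03 in the deposited values and 0.06 after quantile normalization. FANCC, which pairs with FANCE, had 0.06, and -0.01 after median centring. FANCB, a subunit of the ligase module, had -0.15 (SE 0.16). FANCI, the partner of FANCD2 on DNA, read 555, 609 and 557 units after ING2 siRNA, against 607, 687 and 669 units in controls. Only ING2 siRNA replicate 2 and control replicate 1 overlapped, and the log2 value of -0.19 (SE 0.09) did not pass (limma adjusted p = 0.157).

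End resection showed values below 0 for all 3 subunits of the MRE11 complex, none past the threshold on its main probe set. Of genes at or above the median intensity, 57.5% were also below 0. NBN, which ties the complex to ATM, read 750, 880 and 797 units after ING2 siRNA, against 885, 1142 and 971 units in controls. The groups were separated only narrowly, with a log2 value of -0.30 (SE 0.11, limma adjusted p = 0.0935). MRE11, the nuclease, read 549, 560 and 555 units after ING2 siRNA, against 575, 732 and 699 units in controls. Its ING2 siRNA arrays were close to each other and below every control (-0.26, SE 0.10, limma adjusted p = 0.106). The mean of its probe sets had -0.14, and includes the dim 211334_at, at means of 20.2 units after ING2 siRNA and 18.6 in controls. RAD50, the ATPase that bridges the ends, had -0.23 (SE 0.11, limma adjusted p = 0.180), with overlap. EXO1, the nuclease of long-range resection, had -0.21, and BLM, the helicase that unwinds joined strands, had 0.06 in the deposited values and -0.01 after median centring.

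The BRCA1 and BRCA2 arm and the genes of pathway choice had no member past the threshold, and the groups overlapped in all 6 measured genes. PALB2, which links BRCA1 to BRCA2, read 572, 570 and 514 units after ING2 siRNA, against 584, 695 and 543 units in controls (-0.13, SE 0.10). BRCA1 had -0.16 (SE 0.10) and its ligase partner BARD1 -0.12 (SE 0.14). BRIP1, the helicase bound by BRCA1, had 0.00 (SE 0.15) on its main probe set. TP53BP1, which shields ends from resection, read 798, 746 and 775 units after ING2 siRNA, against 767, 717 and 737 units in controls (0.06, SE 0.08). RIF1, its effector, had -0.20 (SE 0.13). The SEs are large against these values, and a missed threshold does not show that the levels were alike.

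**Figure D2:**
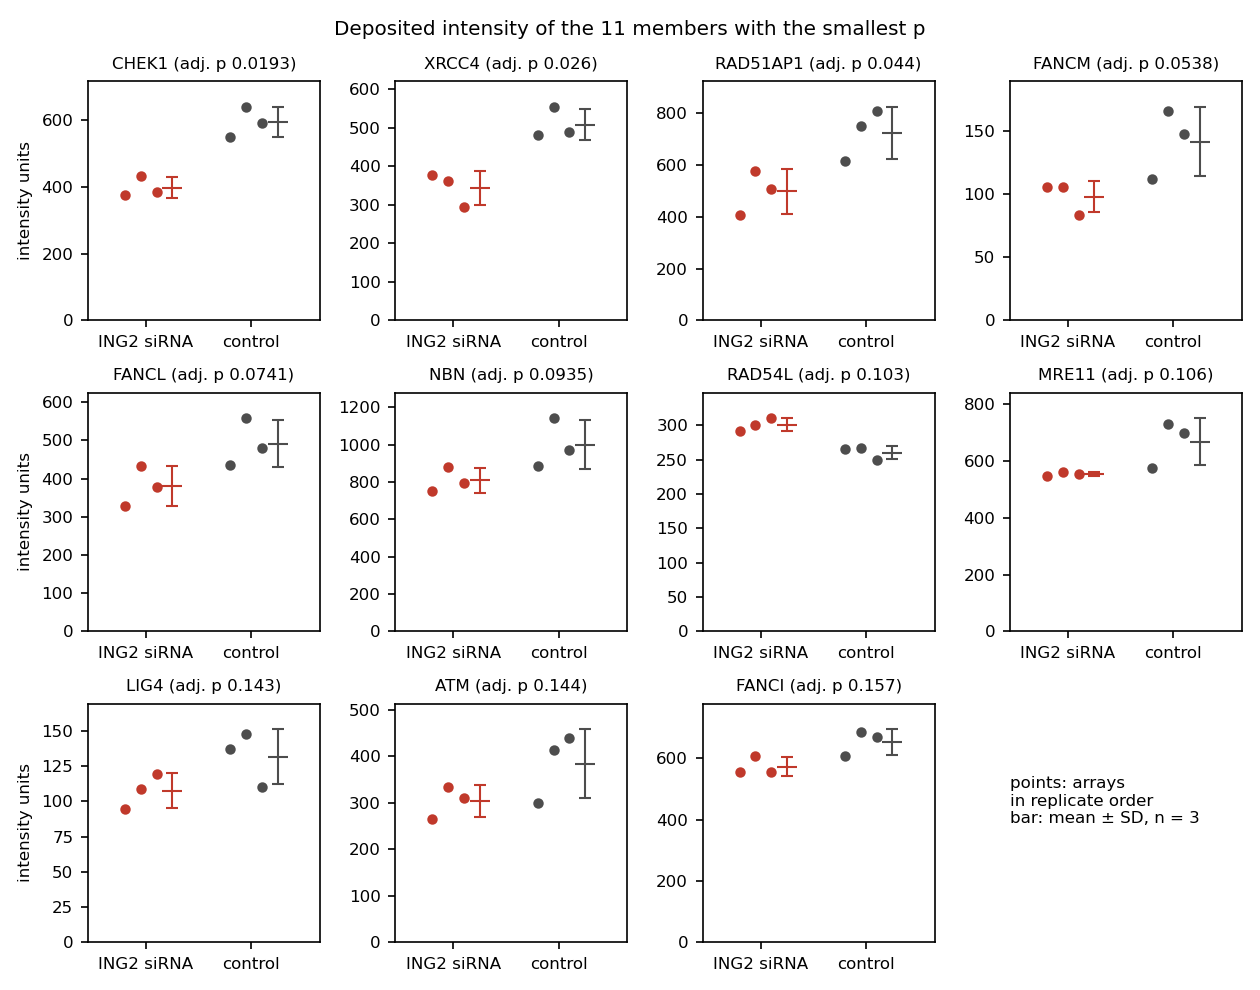
Deposited intensity (linear units from 0, a scale for each gene) on each array for the 3 members that fell and the 8 others with the smallest p, with ING2 siRNA arrays left of controls; bars give the mean ± SD (n = 3). Groups are separate for CHEK1, XRCC4, RAD51AP1, FANCM, FANCL, NBN, RAD54L and MRE11, and overlap for LIG4, ATM and FANCI.

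Across the 35 members the groups did not overlap in 10, being lower after ING2 siRNA in 8 and higher in 2. Of all genes, 36.5% did not overlap, 13.8% as lower and 22.8% as higher, and among genes at or above the median intensity 24.2% did not overlap as lower. Of the 29 members at that intensity, 7 did not overlap as lower. Control replicate 2 was the highest array for 23 of the 35 members (65.7%), compared with 28.6% of genes at or above the median intensity. ING2 siRNA replicate 3 was the lowest for 13 members (37.1%) and ING2 siRNA replicate 1 for 12 (34.3%), compared with 29% and 24.1% of genes at or above the median intensity. The mean over the members, relative to each gene's control mean, was -0.21, -0.08 and -0.22 log2 units on ING2 siRNA replicates 1, 2 and 3. On control replicates 1, 2 and 3 the same mean was -0.12, 0.11 and 0.01, so control replicate 1 lay lower than ING2 siRNA replicate 2. The count of called members changed with the array left out. It was 9 without control replicate 1, where MRE11, NBN, ATM, ATR, FANCM and FANCL also passed. Over all 19777 genes 1631 then passed as lower, compared with 924 with all 6 arrays. The member count was 5 without ING2 siRNA replicate 2, where FANCM and FANCL also passed, and 1350 of all genes then passed as lower. The member count was 0 without control replicate 2, control replicate 3, ING2 siRNA replicate 1 or ING2 siRNA replicate 3. There CHEK1 had limma adjusted p = 0.0840, 0.0773, 0.0685 and 0.117. In those same 4 fits only 2 or 3 of all genes passed. Over the 6 fits with an array left out, CHEK1 ranged from -0.64 to -0.52, XRCC4 from -0.64 to -0.46 and RAD51AP1 from -0.66 to -0.41.

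**Figure D3:**
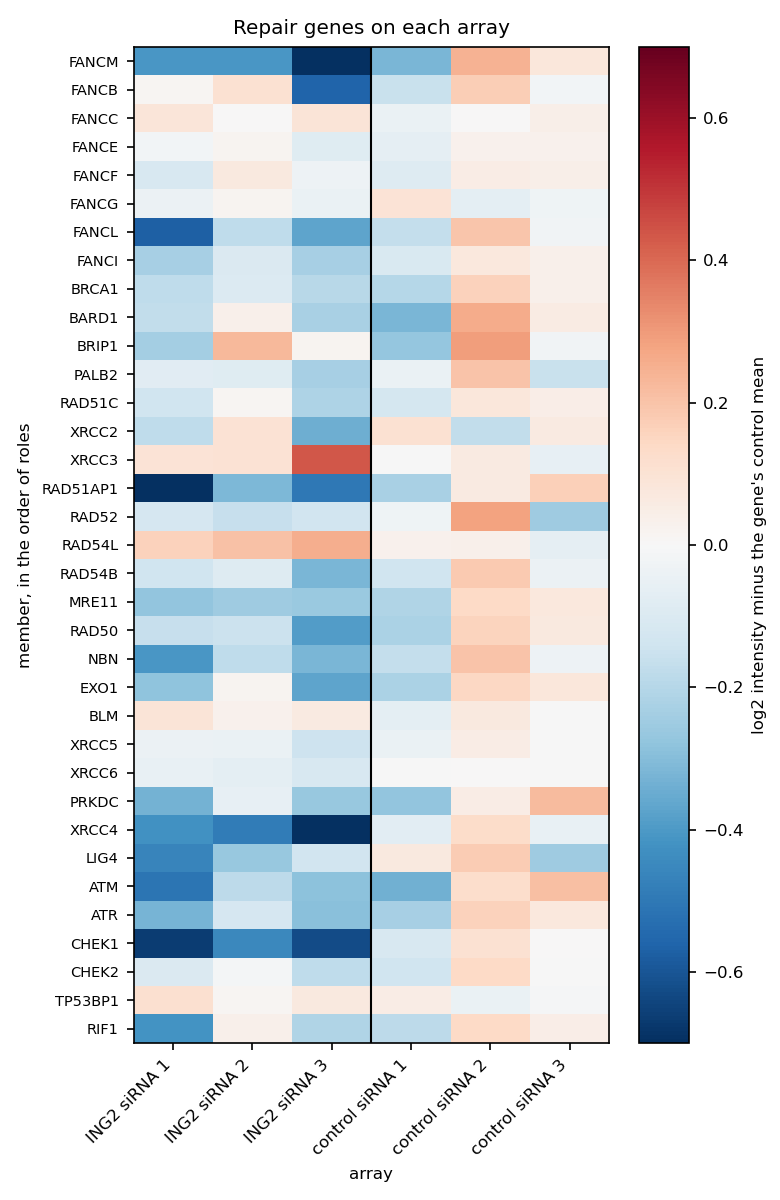
Log2 intensity of each of the 35 members on each array, minus the mean of that gene's 3 control arrays; rows follow the roles, ING2 siRNA arrays are left of the line and control arrays right of it. CHEK1, XRCC4 and RAD51AP1 are low on all 3 ING2 siRNA arrays, and control replicate 2 is the highest array for 23 members.

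Several members are read by more than 1 probe set, and these did not always move together. The 35 members had 92 probe sets, 62 of them below 0, and of the 23 members with several, 9 had all of them on the same side of 0. With each of 41091 probe sets tested on its own, 12 of the 92 passed (13%), all lower, where 5.12% of all probe sets passed as lower and 7.3% in either direction. Probe sets of a gene share the sample, so they are not replicates. The 12 lay in CHEK1, XRCC4, NBN, BRIP1, PRKDC and RAD52. RAD51AP1, with a single probe set, missed the threshold in this wider test (adjusted p = 0.0507).

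For CHEK1, 3 of 4 probe sets fell, by 0.58, 0.53 and 0.51 on the log2 scale. The other, 229423_at, read 196, 179 and 170 units after ING2 siRNA, against 202, 170 and 165 units in controls, at 0.03. For XRCC4, 3 of 4 fell, the largest being 205072_s_at at -0.79, and the other, 210812_at, had -0.00. NBN had 3 further probe sets that fell while its main one did not pass. Probe sets 217299_s_at, 202905_x_at and 202906_s_at fell by 0.93, 0.55 and 0.42 (limma adjusted p = 0.00863, 0.0183 and 0.0422). On 217299_s_at the intensity was 35.3, 49.6 and 33.9 units after ING2 siRNA, against 71.7, 74.1 and 76.5 units in controls. The remaining NBN probe set, 240510_at, had 0.17 without overlap. It was the dimmest of the 5, at 26.2, 23.7 and 25.3 units after ING2 siRNA, against 22.6, 21.0 and 23.6 units in controls. The other 4 were below 0.

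BRIP1, RAD52 and PRKDC each had a probe set that fell beside a main one that did not pass. The BRIP1 probe set 221703_at read 61.9, 73.1 and 79.4 units after ING2 siRNA, against 103, 141 and 103 units in controls (-0.69, SE 0.14, limma adjusted p = 0.0261). Its main probe set read 358, 494 and 428 units after ING2 siRNA, against 351, 518 and 416 units in controls, with full overlap. RAD52 probe set 210630_s_at read 50.1, 53.1 and 46.6 units after ING2 siRNA, against 77.1, 74.4 and 68.7 units in controls (-0.56, adjusted p = 0.0118). PRKDC probe set 210543_s_at read 535, 562 and 581 units after ING2 siRNA, against 775, 678 and 734 units in controls (-0.38, adjusted p = 0.0355). The transcripts read by each probe set were not analysed here. Probe sets also lay on both sides of 0 in other members, from -0.52 to 0.18 in FANCM, from -0.44 to 0.27 in RIF1 and from -0.33 to 0.23 in ATM. The RIF1 extremes came from dim probe sets. Mean intensity after ING2 siRNA and in controls was 46.5 and 64.4 units on 236620_at and 34.7 and 28.7 units on 233781_s_at. ATM probe set 1554631_at read 87.2, 74.4 and 81.2 units after ING2 siRNA, against 71.0, 68.0 and 67.2 units in controls, higher without overlap (0.23, adjusted p = 0.122). All 4 probe sets of TP53BP1 and all 3 of FANCC were above 0 in the deposited values, and both of LIG4 were near -0.28. A pair of probe sets that name both FSBP and RAD54B had -0.08 and -0.32, and neither passed (adjusted p = 0.771 and 0.0826 over the 1801 probe sets that name several genes).

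**Figure D4:**
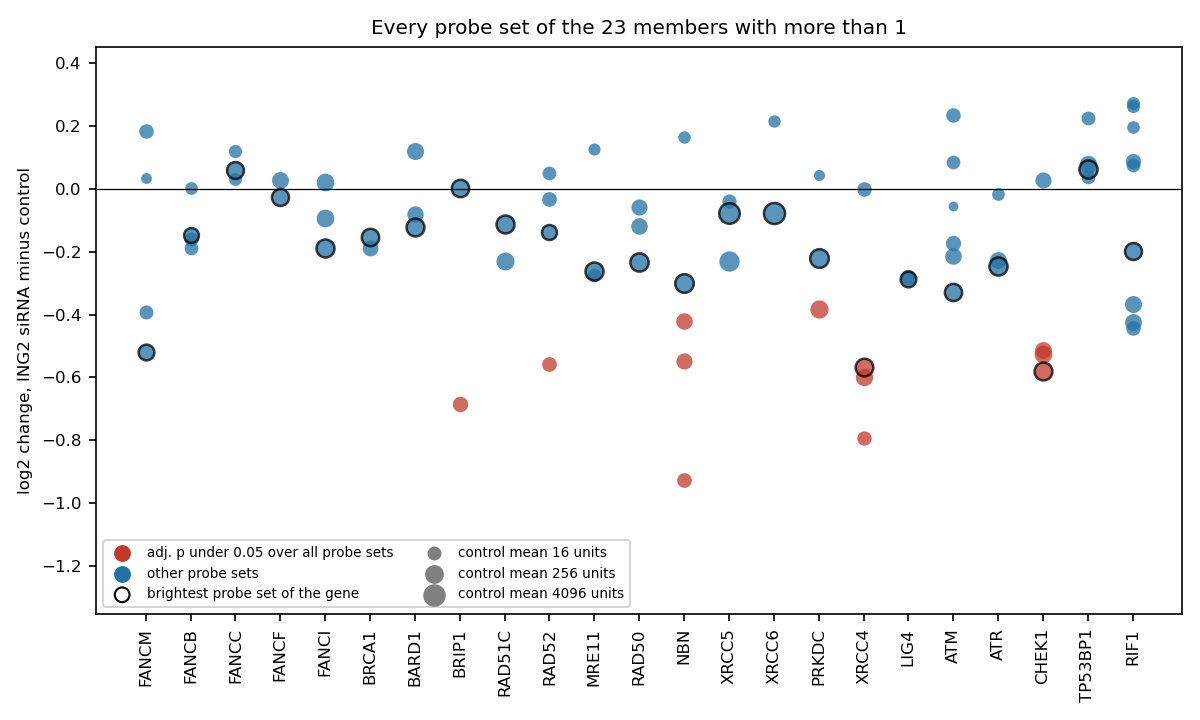
Log2 change (ING2 siRNA minus control) of every probe set of the 23 members with more than 1; red marks adjusted p under 0.05 over 41091 probe sets, a black rim the probe set used for the gene, and the dot area grows with log2 of the control mean. The red dots lie in BRIP1, RAD52, NBN, PRKDC, XRCC4 and CHEK1, all below 0.

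Change and intensity were related over all genes, and the members were read against that. In 10 bins of equal size by mean intensity, the median log2 change of all genes was 0.15 in bins 2 and 3, counted from the dimmest, and -0.09 in bins 9 and 10. Bins 7 and 8 held 10 and 11 of the 35 members, and there the medians were -0.01 and -0.04 and 8.04% and 8.95% of genes passed as lower. Among members' probe sets at or above the median intensity of all probe sets, 45 of 56 were below 0 (80.4%), compared with 55.1% of all such probe sets. Below that median, 17 of 36 were below 0 (47.2%), compared with 25.9%. These shares are descriptions, since probe sets of a gene are not independent and the list was not tested as a whole.

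**Figure D5:**
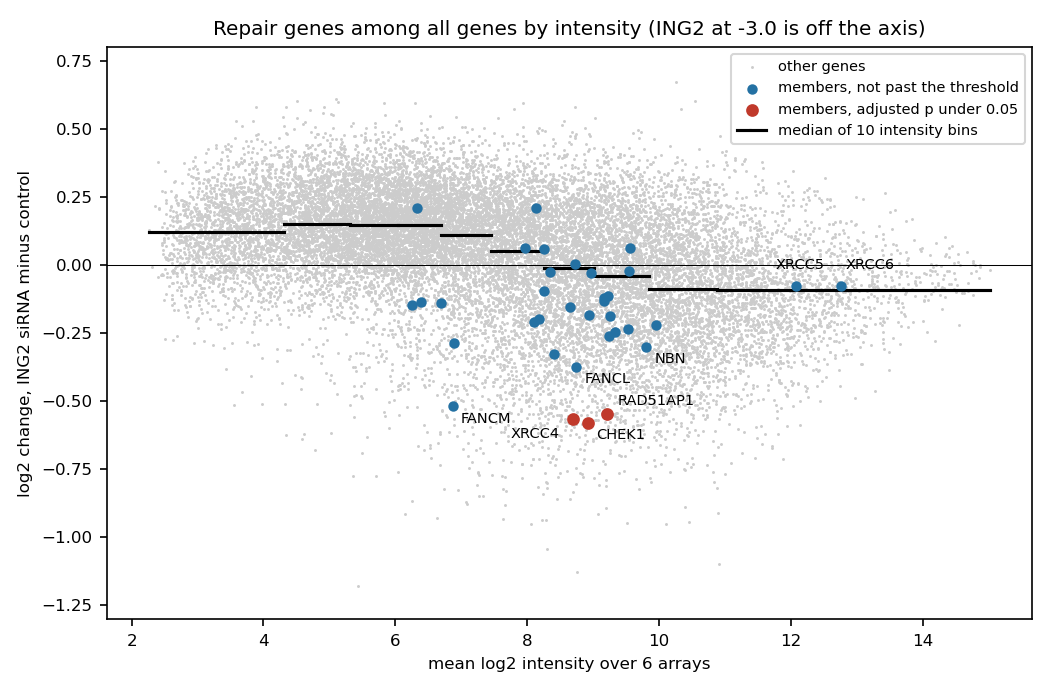
Log2 change (ING2 siRNA minus control) against mean log2 intensity over the 6 arrays for all 19777 genes in grey, with the 35 members in blue or, where called, red; black lines are medians of 10 intensity bins. CHEK1, XRCC4, RAD51AP1 and FANCM are the lowest members, and many grey points lie as low.

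The wider repair network was described from a list of 86 other recombination, Fanconi, end-joining and damage-signalling genes, of which 78 were measured. Of these, 2 fell and 0 rose (2.56% called lower, compared with 4.67% of all genes), with a median of -0.10. Of the 78, 67 were at or above the median intensity, and 8.25% of genes of that intensity passed as lower. An unadjusted limma p under 0.05 was seen for 19 of the 78 (24.4%), compared with 32.9% of all genes and 35.9% of genes at or above the median intensity. ETAA1, which activates ATR at stalled forks, read 141, 179 and 158 units after ING2 siRNA, against 188, 251 and 227 units in controls (-0.48, SE 0.12, limma adjusted p = 0.0450). TDP2, which removes trapped topoisomerase from ends so that they can be joined, had -0.42 (SE 0.11, adjusted p = 0.0447), with 0.0765 after cyclic loess. In damage signalling, 1 of 23 genes fell (4.35%, beside the same 4.67% and 8.25%). RAD9A, a subunit of the checkpoint clamp, had 0.34 (adjusted p = 0.0570), which passed as higher after cyclic loess (0.39, adjusted p = 0.0484). RAD17, which loads that clamp, had -0.31 and did not pass. In end joining, 1 of 16 fell (6.25%), and the hairpin nuclease gene DCLRE1C had -0.40 (adjusted p = 0.0525) and PAXIP1 -0.22. Among 39 other recombination and Fanconi genes 0 passed in either direction, while 9 (23.1%) had an unadjusted p under 0.05, a share also below that of all genes. The helicase gene RECQL5 had 0.34 (adjusted p = 0.0507), the strand exchange cofactor gene MND1 -0.39 and the crosslink nuclease gene FAN1 -0.35. RECQL5 passed as higher after cyclic loess (0.36, adjusted p = 0.0489). With the mean of probe sets RECQL5 had 0.06 (adjusted p = 0.553) and FAN1 -0.05 (adjusted p = 0.644). The 3 subunits of RPA, which coats single strands, had -0.13 (RPA1), -0.15 (RPA2) and -0.19 (RPA3), and none passed the threshold. Their groups did not overlap, as was so in the lower direction for 24.2% of genes at or above the median intensity. In the same order the values were -0.004, -0.03 and -0.05 after quantile normalization and -0.03, -0.06 and -0.08 after cyclic loess.

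Since many repair genes follow the cell cycle, 25 cell-cycle genes, regulators such as RB1 and E2F1 among them, were set beside the members. Of these, 6 fell and 0 rose (24% called lower, compared with 4.67% of all genes and 8.25% of genes at or above the median intensity), with a median of -0.19. The falls were in RB1 (-0.72), the cyclin genes CCNA2 (-0.62) and CCNB1 (-0.43), the kinase genes CDK1 (-0.50) and BUB1 (-0.47) and the sliding clamp gene PCNA (-0.47). A value above 0 was seen for 10 of the 25. Among them were the transcription factor genes E2F1 (0.20), FOXM1 (0.21) and MYBL2 (0.09) and the origin licensing gene CDT1 (0.21). The groups did not overlap as lower in 13 of the 25 and as higher in 2, E2F1 and MYBL2. Of all genes, 13.8% did not overlap as lower and 22.8% as higher. Among genes at or above the median intensity, 24.2% did not overlap as lower. After cyclic loess CCNA2, CCNB1 and BUB1 passed and RB1, CDK1 and PCNA did not (limma adjusted p = 0.0503, 0.0622 and 0.0881). With the mean of probe sets BUB1 had -0.22 (adjusted p = 0.0567) and RB1 -0.31 (adjusted p = 0.0715), and neither passed. In these cultures, fewer cells in a phase and less RNA per cell cannot be told apart, and the part of cycle position in the members' values was not tested.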

How the data were processed

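Arrays of 54675 probe sets were deposited as a table with 1 column per sample. The deposited values are probe set intensity on a linear scale, 1 array each with no pooling. Per the submitters' processing notes RMA and R 2.12 were used. How the linear scale was reached is not stated. RMA compresses small differences of dim probe sets, so values near background understate change.

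Here log2 was taken with no pseudocount and no filter, and the 62 control probe sets were left out. Genes were named through the platform annotation of GEO, with symbols updated through identifiers to RefSeq GRCh38.p14 (19735 of 19777 genes). Of 41091 probe sets naming 1 gene, the one with the highest mean over the 6 arrays stood for its gene. Groups were compared with limma 3.58.1 in R 4.3.3 over all genes, with no covariate and Benjamini-Hochberg adjustment. The fit was checked on simulated data. Members, gene lists, words searched in promoters and the rule for named genes were chosen with earlier results of these data known. That rule gives array values for members past the threshold, the 8 next by p and the member of highest mean in each role group. Of other genes it names those past the threshold, up to 3 per list by p, and the RPA subunits. Array values of XRCC3, ETAA1 and some further probe sets were added outside it, as were the names E2F1, FOXM1, MYBL2 and CDT1. No listed gene was tested as a set. Some listed genes are not reported here.

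Alternatives were median centring, quantile normalization, cyclic loess with 3 iterations, leaving out dim genes, averaging a gene's probe sets, choosing its most variable probe set by interquartile range, robust eBayes with an intensity trend, weighting arrays, a replicate block, each array left out, each probe set tested and a threshold of 0.10. Deviations from group means of same-numbered arrays correlated at 0.263, 0.291 and -0.019 for replicates 1, 2 and 3. Differently numbered arrays correlated at -0.311 to 0.1, so replicates 1 and 2 correlated best with their own number and replicate 3 did not. The labels state no shared culture or day for a number, so the main fit did not pair the samples. A pairing is not excluded.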

Additional observations from a re-analysis of the deposited data

How the results depend on the processing

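Of the members, 3 were lower in the deposited values. The count was 4 after median centring, with the mean of probe sets and with an intensity trend, and 3 after quantile normalization, cyclic loess and without dim genes. It was 8 with the most variable probe set by interquartile range, 7 with array weights, 7 with the replicate block, 6 at a threshold of 0.10, 6 with each probe set tested, and 0 to 9 over the fits without 1 array. No alternative called a member higher. A looser threshold calls more by construction. Choosing a probe set by its spread over all 6 arrays favours probe sets in which the groups differ. With each probe set tested, a gene counted if any of its probe sets passed, which gives several chances. The cause of the other differences was not tested. The member median lay between -0.24 and -0.08 over the fits without 1 array, and was -0.22 after median centring and -0.09 after quantile normalization. Of the other repair genes, 2 were lower and 0 higher. Lower and higher counts were 8 and 0 after median centring, 1 and 2 after quantile normalization and after cyclic loess, 6 and 2 without dim genes, 13 and 1 with the mean of probe sets, 16 and 2 with the most variable probe set, 7 and 2 with an intensity trend, 10 and 3 with array weights, 12 and 2 with the replicate block, 12 and 3 at 0.10, 9 and 1 with each probe set tested, and 0 to 9 and 0 to 4 without 1 array. All genes called were 1640 in the deposited values (924 lower and 716 higher). They were 2620 with the mean of probe sets, 3260 with the most variable probe set, 3858 with array weights, 3508 with the replicate block, 4500 at 0.10 and 2 to 2613 without 1 array. Lower and higher counts were 1445 and 263 after median centring, 624 and 951 after quantile normalization and 682 and 446 after cyclic loess. The replicate block added FANCM, FANCL, NBN and ATM to the 3 members. Replicates 1 and 2 correlated best with their own number and replicate 3 did not. What a shared number stands for is not stated. ING2 stayed between -3.07 and -2.23 in the settings run.

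Values that changed sign did not pass, apart from BRIP1 with its most variable probe set (-0.685, limma adjusted p = 0.0172). After median centring they were FANCC (-0.011), BRIP1 (-0.069), BLM (-0.01) and TP53BP1 (-0.009). After quantile normalization they were FANCE (0.065), FANCF (0.058), FANCG (0.07), XRCC5 (0.03) and XRCC6 (0.007). After cyclic loess they were FANCE (0.028), FANCG (0.055), XRCC5 (0.033) and XRCC6 (0.038). With the mean of probe sets they were FANCF (0.001), BRIP1 (-0.342) and XRCC6 (0.069), with the most variable probe set XRCC6 (0.216) and with array weights BRIP1 (-0.024). These XRCC6 values rest on the dim probe set 215308_at, averaged with the main one or alone. Its means were 24.6 units after ING2 siRNA and 21.1 units in controls, against 6770 and 7140 units on the main probe set. Without 1 array, BRIP1 ranged from -0.133 to 0.149, FANCG from -0.058 to 0.024, BARD1 from -0.28 to 0.009, RAD52 from -0.261 to 0.003, FANCF from -0.075 to 0.018 and FANCB from -0.272 to 0.061. The 3 arrays per group limit all of these.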
